A study of Rattus norvegicus with 6 samples.

Results

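Untreated FE8 cells were compared with untreated 208F cells, on 2 of the 6 arrays of the study, those labelled as the control of each line. All 4818 probe sets that are not array controls were compared, on a log2 scale. 208F is an immortal rat fibroblast line that is not transformed, and FE8 is a rat fibroblast line transformed by the HRAS oncogene. The study asks how demethylating the DNA alters expression in each line, and its other 4 arrays hold 208F (n = 2) and FE8 (n = 2) given 0.3 µM 5-aza-2'-deoxycytidine for 96 h. Neither line had the drug in the comparison described here, which answers how the lines differ at the start. FE8 was the only transformed line, and no probe set listed Hras, so an effect of transformation and any other way in which the lines differ cannot be told apart. The labels do not say whether FE8 is a single clone, which promoter drives HRAS, or whether duplicates were separate cultures.

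RAS is a membrane-bound switch that activates the RAF, MEK and ERK kinases. ERK raises the production and stability of FOS and JUN family proteins, whose dimers, called AP-1, bind the sequence TGANTCA and switch on secreted proteases. Cultured fibroblasts, in contrast, are known for making collagen and fibronectin and for actin stress fibres, which are typically lost when RAS transforms them.

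Each line had 1 untreated array, so the comparison has no replicate of its own. The spread came from the treated duplicates in a limma fit of 4 group means, and the untreated arrays were assumed to vary like them. Errors given as ± are standard errors of this fit, and p-values reflect only how far these duplicates scatter, which could be technical. A probe set is called higher or lower where the Benjamini-Hochberg adjusted p of limma was under 0.05. Differences are log2 of FE8 over 208F after adding 64 to each signal, which holds down the size where a signal is near or below 64. Signals are named in the order 208F, then FE8.

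Both untreated arrays came from chip lot 1 and were scanned on the same day. Their median signals were 354 and 356, and 9 hybridisation controls differed by -0.03 to 0.17. The 5' to 3' ratio of the beta-actin control probe sets, a sign of RNA length, was 0.824 in 208F and 0.351 in FE8, against 0.384 to 0.529 in the treated arrays. The GAPDH ratio was 0.916 and 0.691, against 1.01 to 1.13. Its part in the differences below was not tested. In RNA from whole cultures, fewer cells of a type and less RNA per cell cannot be told apart. The summed signal of 8 measured fibroblast markers was 96120 in 208F and 52116 in FE8, and 4 of the 8 were lower in FE8 (Col1a1, Col1a2, Col3a1 and Fn1). The other 4 did not pass, among them vimentin (Vim) with 18849 and 16158 and Thy1 with 3635 and 4342. The summed signal of 4 measured epithelial markers was 173 and 195, and that of the neuronal markers Syp and Snap25 was 192 and 82.

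Most probe sets differed little between the lines. The median difference was 0.02, and 3116 probe sets (64.7%) lay within 0.5 of 0. Of 4818 probe sets, 285 (5.92%) were called, 149 (3.09%) higher in FE8 and 136 (2.82%) lower. The smallest called difference was 1.15 in size. A difference past 1 was seen in 612 probe sets (12.7%), of which 327 were not called, and a difference past 2 in 159 (3.3%). At the extremes 15 probe sets lay below -4 and 8 above 4. These are counts of probe sets, and all 4 of Col1a1 are among the 15. The largest named rise was 7.37 (Mmp10) and the largest named fall -6.84 (Col1a1). Part of the calls rest on probe sets with a low signal in the other line. Of the 149, 36 (24.2%) had a 208F signal at or below 64, against 13.6% of all probe sets. Of the 136, 35 (25.7%) had an FE8 signal at or below 64, against 13.8% of all. The calls that listed 1 gene covered 111 genes higher and 91 lower, and no gene was called in both directions. The count of calls depended on which duplicates gave the spread. It was 109 without FE8 treated replicate 1, 113 without FE8 treated replicate 2, and 541 and 536 without 208F treated replicate 1 or 2. The treated FE8 duplicates share chip lot 3 and scan day 3, whereas the treated 208F duplicates differ in both, with replicate 1 on lot 2 and day 2. The part of lot and day in these counts was not tested. Where a named call was lost when either treated FE8 array was left out, this is stated with the group, and adjusted p given as a pair are those without replicate 1 and without replicate 2.

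**Figure D1:**
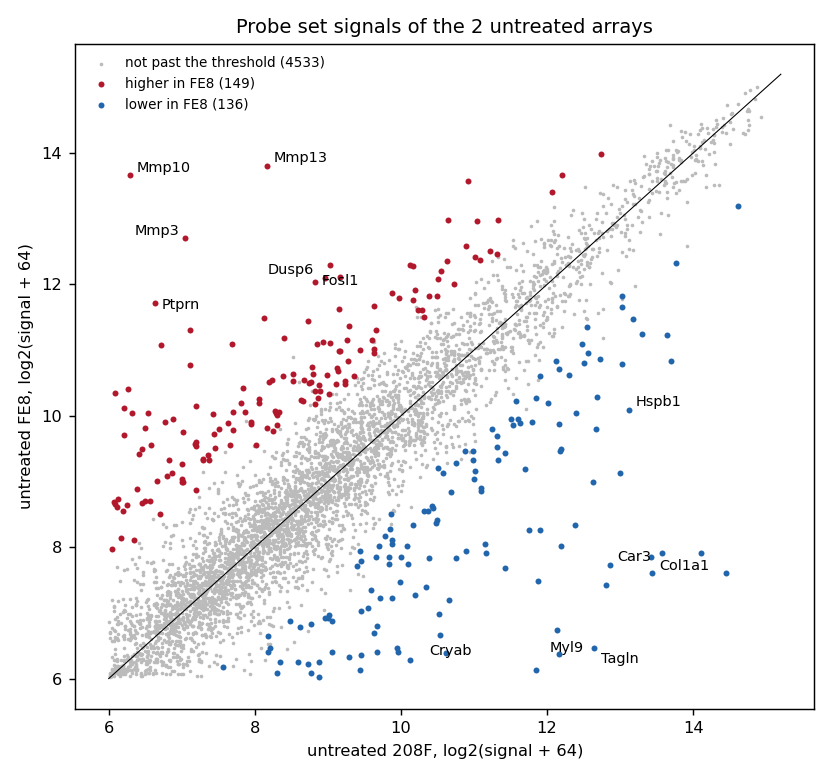
Signal of each of the 4818 probe sets in untreated 208F (horizontal) and untreated FE8 (vertical), both on log axes, with the 149 probe sets called higher and the 136 called lower in FE8 in colour. The bulk of probe sets follows the diagonal, and Mmp10 (14 in 208F, 12849 in FE8) and Tagln (6329 and 24) lie far from it on either side.

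The 3 largest rises were those of secreted matrix metalloproteinases, whose genes lie in a common cluster. Stromelysin 2 (Mmp10), which cleaves proteoglycans, fibronectin and other proteases, had signals of 14 and 12849, a difference of 7.37 ± 0.35 (limma adjusted p = 1.6e-06). Stromelysin 1 (Mmp3) went from 68 to 6573, a difference of 5.65 ± 0.32. Collagenase 3 (Mmp13), which cuts fibrillar collagen, went from 222 to 14268, also 5.65 ± 0.32. All 3 lay below the median signal in 208F and far above it in FE8. The treated arrays, which give this comparison its spread but not its differences, held the same order without overlap. Mmp10 lay at 22 and 63 in 208F and at 17685 and 17769 in FE8.

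The 3 genes belong to a cluster of metalloproteinase genes on rat chromosome 8, where the RefSeq annotation of GRCr8 lists, along the plus strand, Mmp13, Mmp12, Mmp1b, Mmp3, Mmp1, Mmp10, Mmp8, Mmp27, Mmp20 and Mmp7. Of these, 5 were measured, and the other measured members, the macrophage elastase Mmp12 and matrilysin Mmp7, did not pass the test. Their signals were 37 and 12 for Mmp12 and 110 and 84 for Mmp7. The 250 bases before each start are printed below from RefSeq (GRCr8, plus strand, 5′ to 3′), because the 5 promoters share an element while the genes differ in signal. Capitals mark matches to TGANTCA, the AP-1 consensus, searched on both strands. They lie at chr8:12782579-12782828 for Mmp13, chr8:12866402-12866651 for Mmp12, chr8:12925031-12925280 for Mmp3, chr8:12974457-12974706 for Mmp10 and chr8:13132793-13133042 for Mmp7.
Mmp13: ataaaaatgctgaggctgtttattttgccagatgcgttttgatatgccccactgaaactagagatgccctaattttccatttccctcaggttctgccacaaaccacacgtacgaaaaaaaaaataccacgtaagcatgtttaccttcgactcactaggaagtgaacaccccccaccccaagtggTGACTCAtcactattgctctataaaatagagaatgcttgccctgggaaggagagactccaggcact
Mmp12: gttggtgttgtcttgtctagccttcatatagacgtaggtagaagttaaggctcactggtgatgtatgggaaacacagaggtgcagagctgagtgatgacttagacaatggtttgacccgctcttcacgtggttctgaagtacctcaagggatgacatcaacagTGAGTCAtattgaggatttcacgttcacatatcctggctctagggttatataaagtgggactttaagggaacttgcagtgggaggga
Mmp3: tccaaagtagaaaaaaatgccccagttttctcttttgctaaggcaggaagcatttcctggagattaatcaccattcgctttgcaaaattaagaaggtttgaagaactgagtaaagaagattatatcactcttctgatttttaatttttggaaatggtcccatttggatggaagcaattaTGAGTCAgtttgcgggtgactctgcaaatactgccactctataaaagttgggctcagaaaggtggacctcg
Mmp10: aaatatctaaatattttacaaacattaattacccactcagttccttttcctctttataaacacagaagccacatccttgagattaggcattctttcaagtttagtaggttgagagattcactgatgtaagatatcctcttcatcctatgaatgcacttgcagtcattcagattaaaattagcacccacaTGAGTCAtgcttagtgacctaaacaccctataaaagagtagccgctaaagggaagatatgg
Mmp7: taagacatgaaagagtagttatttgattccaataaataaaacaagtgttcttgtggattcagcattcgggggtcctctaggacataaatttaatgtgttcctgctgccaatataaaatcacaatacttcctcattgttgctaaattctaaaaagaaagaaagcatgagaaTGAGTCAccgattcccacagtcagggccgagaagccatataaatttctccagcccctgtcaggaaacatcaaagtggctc
Each of the 5 windows held exactly 1 match. Between the match and the start lie 59 bases in Mmp13, 80 in Mmp12, 64 in Mmp3, 54 in Mmp10 and 73 in Mmp7. The letters were TGACTCA in Mmp13 and TGAGTCA in the other 4. Mmp12 and Mmp7, low in both lines, thus carry the same letters as Mmp3 and Mmp10. A match describes the letters only and is not evidence that a factor binds.

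TGANTCA was then counted in the 250 bases before the start of all measured genes with a promoter in the RefSeq table. It was present in 16 of 89 genes called higher in FE8 (18.0%), in 4 of 69 called lower (5.8%), in 131 of 2437 measured genes (5.38%) and in 2122 of all 33469 promoters of the table (6.34%). A gene with several starts was counted as holding it if any start did, and its CpG count was the mean over starts. The 33469 were counted by promoter and not by gene, so that share is not in the same unit. Without Mmp3, Mmp10 and Mmp13 the share among higher genes was 13 of 86 (15.1%). AP-1 matches were more common in promoters with few CpG: among those with at most 15, the share was 14 of 45 for higher genes (31.1%), 2 of 28 for lower genes (7.14%) and 93 of 1097 for measured genes (8.48%). Besides the metalloproteinases, the higher genes with a match were Cyp3a9, Serpinb2, Ocm, Ddit3, Mal, Cxcl10, Lama3, Phgdh, Adh1c, Il1a, Msmo1, Ripk3 and Idi1. Those among the lower genes were F2r, Crabp1, Ephx1 and Pde4b. The CArG box is the element of serum response factor found in many contractile genes. Only its strict form was searched, a run of A or T between CC and GG. It was in 1 of 69 lower genes (1.45%) and 45 of 2437 measured genes (1.85%). Tagln and Myl9, both called lower, had no promoter in the RefSeq table and are not among the 69. These shares are descriptions without a test.

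Not every protease followed. The 14 measured metalloproteinases and TIMP inhibitors split into 3 higher, 2 lower and 9 that did not pass, with a median of -0.31 (over all 2890 genes, by their brightest probe set, 3.60% were higher, 2.42% lower and the median was 0.03). Gelatinase A (Mmp2), which degrades denatured and basement membrane collagen, was lower, from 927 to 21, by -3.54 ± 0.37 (limma adjusted p = 0.00017). The inhibitor Timp2 was lower by -1.37 ± 0.33, from 8329 to 3175, a call that was lost without either treated FE8 array (adjusted p = 0.207 and 0.206). The membrane-bound Mmp14, which activates Mmp2, had signals of 1169 and 708, the inhibitor Timp1 1866 and 1520, and gelatinase B (Mmp9) 47 and 21, and none of these passed.

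The plasminogen system and the lysosomal cathepsins also differed. Of 12 measured genes, 3 were higher and 1 lower, and 8 did not pass, with a median of 0.60, and 10 of the 12 lay above 0. Serpinb2, an inhibitor of plasminogen activators, went from 16 to 990, by 3.72 ± 0.40 (limma adjusted p = 0.00022). The tissue plasminogen activator Plat went from 5 to 327, by 2.50 ± 0.51, and cathepsin L (Ctsl), a lysosomal protease that RAS-transformed cells are known to secrete, from 2516 to 8022, by 1.65 ± 0.31. The collagen chaperone Serpinh1, which is also counted in the collagen list, was lower, from 6693 to 1801. The urokinase receptor Plaur had signals of 327 and 703 and urokinase (Plau) 48 and 61, and neither passed. Only Serpinb2 of the 4 calls held without either treated FE8 array. The other 3 then had adjusted p between 0.065 and 0.0985.

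**Figure D2:**
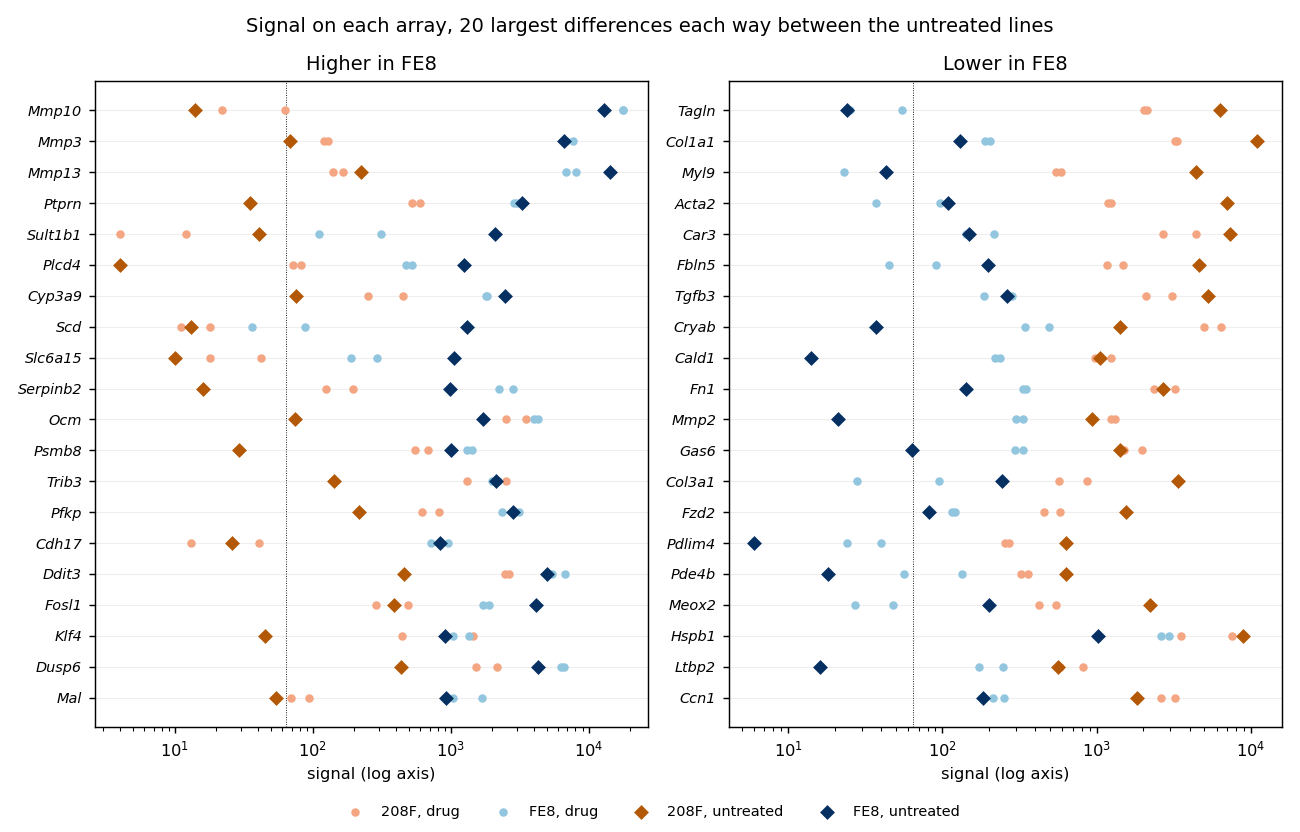
Signals, on a log axis, of the 20 genes most raised and the 20 most lowered in untreated FE8 against untreated 208F, with the untreated array of each line and the 2 treated arrays of each line as separate points. Mmp10, Mmp3 and Mmp13 stand apart by line in treated arrays as well, while the treated differences are smaller than the untreated ones for Scd (0.65 against 4.15), Trib3 (0.19 against 3.39) and Ocm (0.48 against 3.67).

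Many genes for the extracellular matrix were lower in FE8. Of 15 measured collagens and collagen-processing genes, 7 were lower and 1 higher, and 7 did not pass, with a median of -1.43, and 14 of the 15 lay below 0. Type I collagen, the main fibril of connective tissue, has a chain from Col1a1, whose brightest probe set went from 22282 to 131, by -6.84 ± 0.48 (limma adjusted p = 7.7e-06). All 4 probe sets of Col1a1 were called, between -6.84 and -5.58. Its partner chain Col1a2 differed much less, from 13772 to 5073, by -1.43 ± 0.36. The fibril partners Col3a1 (3385 and 244), Col5a1 (2502 and 576), Col5a2 (8262 and 1706) and Col11a1 (407 and 1) were lower too, by -3.48 for Col3a1, -2.23 for Col5a2 and -2.86 for Col11a1. Loxl1, a lysyl oxidase that cross-links elastin, went the other way, from 2044 to 7943, by 1.93 ± 0.30. The calls of Col1a1, Col3a1 and Col5a2 held in every alternative fit that tested them. The other 5 were lost without at least 1 of the treated FE8 arrays, with adjusted p from 0.0511 to 0.206. Lysyl oxidase (Lox) did not pass by its brightest probe set (-1.14), but 2 others were called at -1.66 and -1.68.

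Of 15 matrix glycoproteins and proteoglycans measured, 6 were lower and 0 higher, and 9 did not pass, and the median was -1.33 (limma unadjusted p under 0.05 for 10 lower and 0 higher). Fibulin 5 (Fbln5), needed to assemble elastic fibres, went from 4620 to 196, by -4.17 ± 0.40 (limma adjusted p = 9.7e-05). Fibronectin (Fn1), the adhesive glycoprotein of the fibroblast matrix, went from 13153 to 1771 by its brightest probe set, by -2.85 ± 0.38. All 5 fibronectin probe sets lay below 0, between -3.74 and -1.36, and 4 were called. Ccn1, a matricellular integrin ligand, went from 1834 to 183. The basement membrane protein nidogen 1 (Nid1, 360 and 11) and the syndecans Sdc4 (4538 and 1626) and Sdc1 (3008 and 1132), cell-surface heparan sulfate proteoglycans, were lower by -2.50, -1.45 and -1.36. These 3 were not called without either treated FE8 array (adjusted p 0.132 to 0.232). Sparc, a collagen-binding glycoprotein, was not called by its brightest probe set (-0.77), while 3 others were called at -2.24, -1.99 and -1.82. Biglycan (Bgn) likewise lay at -0.86 by its brightest and at -2.15 by a called probe set.

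Several contractile genes typical of the myofibroblast were lower in FE8. Transgelin (Tagln), which bundles actin, went from 6329 to 24, by -6.18 ± 0.38 (limma adjusted p = 3.8e-06). The regulatory myosin light chain Myl9 went from 4411 to 43, by -5.39 ± 0.41, and smooth muscle actin (Acta2) from 7043 to 108, by -5.37 ± 0.41. Caldesmon (Cald1), which restrains myosin on actin, went from 1058 to 14, and tropomyosin 1 (Tpm1), which stiffens the filament, from 6457 to 823, by -2.88 ± 0.33. These 5 calls held in every alternative fit that tested them. Tpm1 had 5 probe sets, all below 0, between -2.88 and -0.30, and 2 of them were called. Of the 24 measured members of the list, 18 did not pass, 5 were lower and 1 was higher, with a median of -0.50. Calponin 3 (Cnn3) was the higher gene, from 1635 to 4021, by 1.27 ± 0.30, with adjusted p of 0.183 and 0.177 without the treated FE8 arrays. The beta-actin controls moved too, by -1.76 at the 5' end, -1.26 in the middle and -0.53 at the 3' end, and the part of RNA length in the actin list was not tested.

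TGF-beta is known to drive fibroblasts to make matrix and smooth muscle actin. Of 18 measured genes of the TGF-beta, BMP and activin pathway, 3 were lower and 0 higher, and 15 did not pass, with a median of -0.34 (limma unadjusted p under 0.05 for 5 lower and 0 higher). The ligand Tgfb3 went from 6289 to 443 by its brightest probe set, by -3.65 ± 0.40, and the latent TGF-beta binding protein Ltbp2 from 561 to 16, by -2.97 ± 0.44. The activin-binding Fstl1 went from 12686 to 2331, by -2.41 ± 0.37 (adjusted p = 0.0524 and 0.0515 without the treated FE8 arrays). Follistatin (Fst) lay at -1.25 by its brightest probe set, which did not pass, and at -1.53 by a called one (225 and 36, adjusted p = 0.0495). The BMP target Id1 with 1513 and 679 and the transducer Smad3 with 126 and 55 did not pass.

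**Figure D3:**
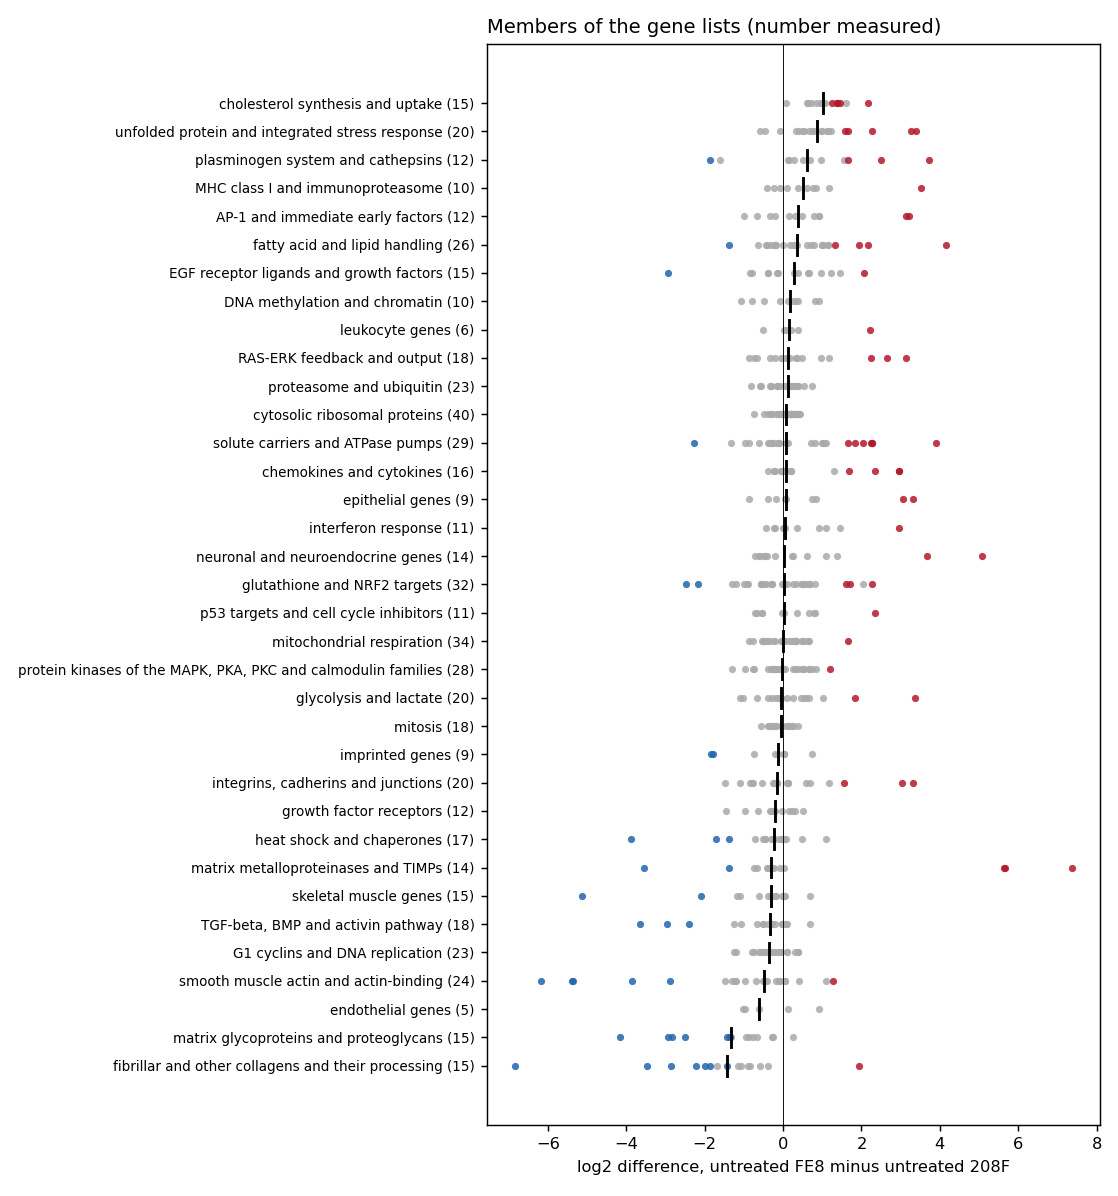
Log2 difference of untreated FE8 against untreated 208F for each measured member of the gene lists, with the number measured beside each name the list median as a bar, and called genes in red (higher) and blue (lower). Collagens (median -1.43) and matrix glycoproteins (median -1.33) lie lowest, cholesterol synthesis (median 1.01) lies highest, and ribosomal proteins sit in a narrow band around 0.07.

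Among the genes that report ERK activity, a subset was high in FE8. Of 18 measured genes of RAS-ERK feedback and output, 3 were higher and 0 lower, and 15 did not pass, with a median of 0.14 (limma unadjusted p under 0.05 for 5 higher and 1 lower). Dusp6, a phosphatase that switches off ERK and is itself induced by it, went from 436 to 4313, by 3.13 ± 0.33 (limma adjusted p = 0.00019). The nuclear ERK phosphatase Dusp5 went from 399 to 2123, by 2.24 ± 0.31. Osteopontin (Spp1), a secreted integrin ligand, went from 1871 to 12091, by 2.65 ± 0.40, and its adjusted p was 0.0523 and 0.0515 without the treated FE8 arrays. The hyaluronan receptor Cd44 had signals of 902 and 2115. The stress-inducible phosphatase Dusp1 had 716 and 403 and the inhibitor Spry1 179 and 88, and these 3 did not pass.

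The AP-1 family itself differed in Fosl1. Fosl1 encodes FRA1, the AP-1 subunit that sustained ERK activity stabilises, and its signal went from 387 to 4140, by 3.22 ± 0.38 (limma adjusted p = 0.00041). Its relatives Fos (573 and 340), Fosl2 (354 and 144) and Jun (1394 and 2704) did not pass, nor did Myc (731 and 1434). Klf4, a zinc finger factor, went from 45 to 900, by 3.15 ± 0.59, a call lost without either treated FE8 array (adjusted p = 0.0881 and 0.0864). Its treated 208F arrays lay far apart, at 443 and 1439. In all 2 of 12 measured AP-1 and immediate early factors were higher and 0 were lower, with a median of 0.39.

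The growth factor list held 2 calls and the receptor list 0, where 3.60% of all 2890 genes were higher and 2.42% lower. Of 15 measured members of the growth factor list, 1 was higher, 1 was lower and 13 did not pass. The median was 0.28, and -0.38 when probe sets with a shared suffix were left out. The lower gene was the matricellular Ccn1, which is also counted in the matrix glycoprotein list. Transforming growth factor alpha (Tgfa), a ligand of the EGF receptor, went from 93 to 587, by 2.05 ± 0.47, with adjusted p of 0.0879 and 0.0882 without the treated FE8 arrays. Amphiregulin (Areg), another ligand of that receptor, had 73 and 309, and neuregulin 1 (Nrg1) 320 and 680, and neither passed. Of 12 measured growth factor receptors, 0 passed in limma in either direction (unadjusted p under 0.05 for 0 higher and 2 lower), and the largest difference was that of Erbb2, with signals of 451 and 125. Of 28 measured MAPK, PKA, PKC and calmodulin kinases, 1 was higher, the atypical MAP kinase Mapk6 (1202 and 2841), with adjusted p of 0.19 and 0.186 without the treated FE8 arrays.

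Adhesion genes changed in a few members that fibroblasts do not usually make. Cadherin 17 (Cdh17), an adhesion protein of intestinal epithelium, went from 26 to 838, by 3.33 ± 0.45, and integrin beta 4 (Itgb4), the laminin receptor chain of hemidesmosomes, from 24 to 661, by 3.04 ± 0.44. Of 20 measured integrins, cadherins and junction genes, 3 were higher and 0 lower, and 17 did not pass, with a median of -0.15. The third was Alcam (387 and 1265, by 1.56 ± 0.41), whose other probe set lay at -0.08 and whose adjusted p was 0.195 and 0.193 without the treated FE8 arrays. In the epithelial list Cdh17 and Mal, a raft protein of apical sorting (54 and 924, by 3.07 ± 0.44), were the 2 of 9 measured genes that passed. The defining epithelial genes Krt8 (159 and 131), Krt18 (3 and 5) and Epcam (6 and 9) did not.

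All 15 measured genes of cholesterol synthesis and uptake lay above 0 in FE8, with a median of 1.01. Of these, 5 were higher and 0 lower, and 10 did not pass (limma unadjusted p under 0.05 for 10 higher and 0 lower). Squalene epoxidase (Sqle), a rate-controlling step, went from 1051 to 4970, by 2.17 ± 0.38 (limma adjusted p = 0.0058). The sterol demethylation enzymes Msmo1 (4671 and 12944) and Cyp51 (2017 and 5371) were higher by 1.46 and 1.39, and Idi1 (1139 and 3065) and Fdps (6754 and 16153), which make the isoprenoid precursors, by 1.38 and 1.25. No call of this list held without either treated FE8 array (adjusted p 0.0576 to 0.233), although the direction of every member comes from the untreated arrays alone. In the treated arrays the median of the list was -0.11, and 0 of 15 passed.

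Lipid handling was mixed. Stearoyl-CoA desaturase (Scd), which makes monounsaturated fatty acids, went from 13 to 1300, by 4.15 ± 0.48 (limma adjusted p = 0.00038), while its other probe set had signals of 1 and 2. Of 26 measured lipid genes, 4 were higher and 1 lower, and 21 did not pass, with a median of 0.35. The acyl-CoA synthetases Acsl4 (426 and 2154) and Acsl5 (1187 and 3063) were higher by 2.18 and 1.32. The fatty acid binding proteins went opposite ways, with Fabp4 at 2 and 188 and Fabp5 at 125 and 8. Fatty acid synthase (Fasn), with 957 and 2185, did not pass. Scd alone of the 5 calls held without either treated FE8 array, and the other 4 then had adjusted p from 0.071 to 0.172.

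The integrated stress response is a programme switched on when eIF2 alpha is phosphorylated, and some of its genes were higher in FE8. Of 20 measured unfolded protein and stress response genes, 5 were higher and 0 lower, and 15 did not pass, with a median of 0.87, and 17 of the 20 lay above 0 (limma unadjusted p under 0.05 for 9 higher and 0 lower). The pseudokinase Trib3 went from 143 to 2111, by 3.39 ± 0.42, and the transcription factor Ddit3, also called CHOP, which induces it, from 459 to 4972, by 3.27 ± 0.31 (limma adjusted p = 9.6e-05). The reelin receptor Vldlr went from 53 to 495, by 2.26 ± 0.43. The amino acid carrier subunit Slc3a2 (1437 and 4639) and Phgdh (342 and 1140), the entry enzyme of serine synthesis, were higher by 1.65 and 1.57, but not without either treated FE8 array (adjusted p 0.0892 to 0.138). The endoplasmic reticulum chaperone Hspa5, with 5812 and 11380, did not pass.

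Of 17 measured heat shock genes and chaperones, 3 were lower and 0 higher, and 14 did not pass, with a median of -0.24 (limma unadjusted p under 0.05 for 3 lower and 1 higher). Alpha B crystallin (Cryab), a small heat shock protein that protects desmin and actin filaments, went from 1420 to 37, by -3.88 ± 0.36 (limma adjusted p = 9.6e-05). The related Hspb1, which caps actin, went from 9216 to 2765 by its brightest probe set, by -1.71 ± 0.33, and all 4 of its probe sets lay between -3.03 and -0.20. Clusterin (Clu), a secreted chaperone, went from 5639 to 2136, by -1.37 ± 0.35 (limma adjusted p = 0.044). The clusterin call was lost under 8 of the 13 alternatives, with adjusted p up to 0.232, and that of Hspb1 was lost without either treated FE8 array (adjusted p = 0.104 and 0.102 for the brightest probe set).

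Transcripts of chemokines that attract monocytes and T cells were higher in FE8. Ccl2 went from 82 to 1074, by 2.96 ± 0.49, and Cxcl10 from 509 to 4348, by 2.94 ± 0.36 (limma adjusted p = 0.00052). Of 16 measured chemokines and cytokines, 4 were higher and 0 lower, and 12 did not pass, with a median of 0.06. The cytokine Il1a (37 and 450) and the prostaglandin synthase Ptgs1 (82 and 405) were higher by 2.35 and 1.68, but not without either treated FE8 array (adjusted p 0.0976 to 0.114). Of 11 measured interferon response genes, Cxcl10 was the only call, with a median of 0.06. The antiviral genes Rsad2 (10 and 137), Mx1 (46 and 30) and Oas1a (325 and 274) did not pass. Psmb8, an immunoproteasome subunit, went from 29 to 999, by 3.52 ± 0.36. It was the 1 call of 10 measured MHC class I and immunoproteasome genes, where its partner Psmb9 had 250 and 637 and B2m 3177 and 4164.

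Carriers and pumps held 8 calls, as many as the collagen list. Of 29 measured, 7 were higher and 1 lower, and 21 did not pass, with a median of 0.07. The neutral amino acid transporter Slc6a15 went from 10 to 1050, by 3.91 ± 0.47 (limma adjusted p = 0.00051), the drug efflux pump Abcb1b from 135 to 890, by 2.26 ± 0.30, and the nucleoside transporter Slc29a1 from 269 to 1504, by 2.23 ± 0.34. The water channel Aqp1 (64 and 554), the lactate carrier Slc16a1 (946 and 3510), Slc3a2 and the glutamate transporter Slc1a3 (93 and 581) were the other 4, and these were not called without either treated FE8 array (adjusted p 0.0511 to 0.0932). Slc1a3 had 3 further probe sets, and these lay between -1.69 and -0.10. The sodium pump subunit Atp1b1 was lower, from 4516 to 876, by -2.29 ± 0.30.

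In glycolysis and redox metabolism single enzymes differed. The platelet-type phosphofructokinase Pfkp, which controls entry into glycolysis, went from 215 to 2820, by 3.37 ± 0.35, whereas the liver type Pfkl had 1192 and 553 and did not pass. Of 20 measured glycolysis genes, Pfkp and Slc16a1 were higher and 0 were lower, with a median of -0.05. The glucose transporter Slc2a1, with 2024 and 4129, did not pass. Of 32 measured glutathione and NRF2 genes, 3 were higher and 2 were lower, with a median of 0.01. They were Abcb1b, the mitochondrial peroxidase Prdx3 (1526 and 5146) and transketolase (Tkt, 1079 and 3440) on the higher side, and the aldehyde dehydrogenase Aldh3a1 (684 and 71) and the epoxide hydrolase Ephx1 (469 and 54) on the lower side. All but Abcb1b were lost without either treated FE8 array (adjusted p 0.0559 to 0.104).

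Proliferation genes and cell cycle inhibitors were set beside all 2890 genes, of which 3.60% were higher and 2.42% lower. Of 23 measured G1 cyclin and DNA replication genes, 0 were called by limma on the brightest probe set (unadjusted p under 0.05 for 2 lower and 0 higher), with a median of -0.35 and 18 of 23 below 0. Cyclin D3 (Ccnd3) had 3362 and 1376 by its brightest probe set (adjusted p = 0.054), while its other 2 were called lower, at -1.52 and -2.03. The kinase Cdk4 had 6084 and 4036 and the replication helicase subunit Mcm7 3628 and 2348. Of 18 measured mitosis genes, 0 were called and 0 had an unadjusted p under 0.05, with a median of -0.06, and topoisomerase Top2a had 5905 and 4983. Among 11 p53 targets and cell cycle inhibitors, the antiproliferative gene Btg1 was higher, from 1535 to 8009, by 2.34 ± 0.35, while the inhibitor Cdkn1a had 105 and 43 and did not pass. The stress gene Gadd45a lay at 0.80 by its brightest probe set, which did not pass, and at 1.54 and 2.07 by 2 called ones.

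Housekeeping groups held few calls, where 3.60% of all 2890 genes were higher and 2.42% lower. Of 40 measured cytosolic ribosomal proteins, 0 were called and 0 had an unadjusted p under 0.05 in limma, with a median of 0.07 and a range from -0.74 to 0.43. Of 23 proteasome and ubiquitin genes, 0 were called (unadjusted p under 0.05 for 1 higher and 1 lower), with a median of 0.13. Of 34 mitochondrial respiration genes, 1 was higher, with a median of 0.00. That gene was Cox6a2, the muscle form of a cytochrome oxidase subunit (224 and 837), and its adjusted p was 0.0872 and 0.0838 without the treated FE8 arrays.

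Among genes tied to DNA methylation, which the study's drug targets, the maintenance methyltransferase Dnmt1 had signals of 1228 and 855 and did not pass. Of 10 measured methylation and chromatin genes, 0 were called by limma on the brightest probe set (unadjusted p under 0.05 for 2 higher and 2 lower), with a median of 0.18. Of 9 measured imprinted genes, expressed from the copy of a single parent, 2 were lower. The growth factor receptor adaptor Grb10 went from 1585 to 394, by -1.85 ± 0.36, and the zinc finger gene Plagl1 from 742 to 168, by -1.80 ± 0.38, with adjusted p between 0.0557 and 0.0742 without the treated FE8 arrays. H19, a non-coding imprinted RNA, was at 79 and 22, and Igf2 at 239 and 213.

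Genes typical of other cell types made up several of the largest differences, so counts over the marker lists are given beside them. Ptprn, a membrane protein of secretory granules in neuroendocrine cells, went from 35 to 3277, by 5.08 ± 0.32 (limma adjusted p = 4e-06), and oncomodulin (Ocm), a calcium-binding protein, from 74 to 1699, by 3.67 ± 0.33. They were the 2 called genes of 14 measured neuronal and neuroendocrine genes, whose median was 0.01. Carbonic anhydrase 3 (Car3), abundant in muscle and fat, went from 7369 to 148, by -5.13 ± 0.40, and the myogenic factor Myod1 from 260 to 12, by -2.09 ± 0.40 (adjusted p = 0.0524 and 0.0515 without the treated FE8 arrays). These were the 2 lower of 15 skeletal muscle genes, with a median of -0.32. The summed signal of the defining markers Des, Myod1 and Acta1 was 386 in 208F and 35 in FE8. Of 6 leukocyte genes the tetraspanin Cd37 was higher (24 and 344, by 2.21 ± 0.44, adjusted p = 0.0514 and 0.0515 without the treated FE8 arrays), and the other 5 did not pass. Of 5 endothelial genes 0 passed in limma (unadjusted p under 0.05 for 0 higher and 1 lower). The adipocyte marker Fabp4 was at 2 and 188, and its partner Lpl at 47 and 62.

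For 809 genes, 2 or more probe sets were measured, which allows each gene to be compared with itself. Of the 94 with a call, 89 (94.7%) had all their probe sets on the same side of 0, and in 29 (30.9%) every probe set was called. Among genes without a call 474 of 715 (66.3%) were on the same side. The 94 were selected by a call on these same 2 arrays, where no called difference was under 1.15 in size. Their probe sets also measure the same RNA, so the shares describe the arrays and are not independent support for the calls. The range among probe sets of a gene had a median of 0.77 with a call and 0.34 without. The 5 exceptions were Alcam, Anxa6, Cebpb, Eif4h and Slc1a3. Cebpb, a transcription factor of stress and differentiation, had a called probe set at -1.59 (signals 292 and 54) and a brighter one at 0.50 (1075 and 1547). Same-sided genes could also differ in size: the growth-arrest ligand Gas6 was called at -3.54 (1409 and 63) by 1 probe set and lay at -0.55 (1042 and 692) by its brightest. Tkt (0.31 and 1.62), Il1a (0.70 and 2.35), Idi1 (0.52 and 1.38) and Slc3a2 (0.65 and 1.65) also had only 1 called probe set. Cyp51 had 1 called of 5, which lay between 0.34 and 1.56. Among measured genes of the lists, 15 were not called by their brightest probe set, which the list counts use, but were called by another, 4 higher and 11 lower.

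**Figure D4:**
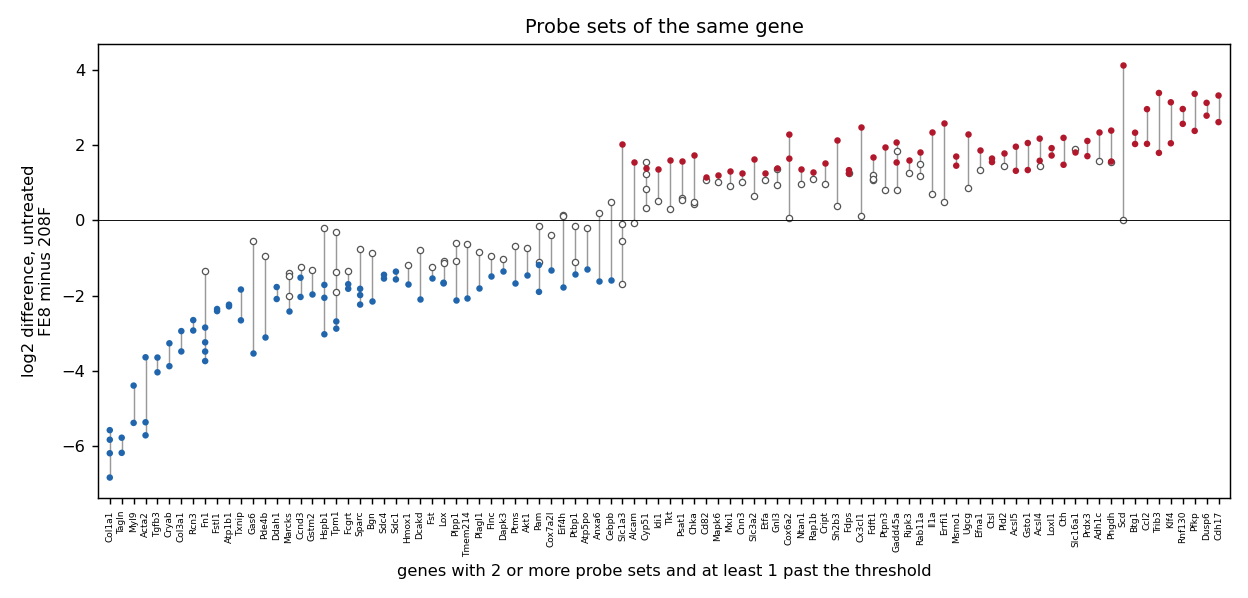
Log2 difference of untreated FE8 against untreated 208F for every probe set of the 94 genes with 2 or more probe sets and at least 1 call, ordered along the horizontal axis. In 89 genes all points lie on the same side of 0, and Cebpb and Slc1a3 have points past 0.5 on both sides.

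The 4 treated arrays give the same line contrast in samples that enter the untreated comparison only through its spread. They were under drug and in later runs (208F replicate 1 on lot 2 and day 2, the other 3 on lot 3 and day 3). The fit shares its error estimate between both contrasts, so treated duplicates that lie close together favour a call in either. In the treated arrays, 341 probe sets (7.08%) were called. Of the 149 untreated calls on the higher side, 69 were also called higher there (46.3% of these and 41.8% of the 165 treated calls, which are 3.42% of all), and 92 of 136 on the lower side were called lower (67.6% of these and 52.3% of the 176 treated calls, which are 3.65% of all). Both treated FE8 arrays lay above both treated 208F arrays for 119 of the 149 (79.9%), against 20.6% of all probe sets. They lay below for 121 of the 136 (89.0%), against 21.5% of all. The opposite order without overlap was seen for 5 higher and 4 lower calls.

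The sizes in both sets of arrays were close for some genes and far apart for others. Mmp10 differed by 7.37 untreated and 7.41 treated, Mmp3 by 5.65 and 5.29, Serpinb2 by 3.72 and 3.54, Cdh17 by 3.33 and 3.31 and Ccn1 by -2.94 and -3.33. Tagln differed by -6.18 and -4.38 and Myl9 by -5.39 and -2.70, with treated 208F signals of 545 and 585 for Myl9 against 4411 untreated. Scd differed by 4.15 and 0.65, Trib3 by 3.39 and 0.19 and Ocm by 3.67 and 0.48. In Trib3 and Ocm the treated 208F signals were the ones that stood apart from the untreated value, at 1302 and 2524 for Trib3 against 143. In Scd the treated FE8 signals did, at 87 and 36 against 1300. The median treated difference of the untreated calls was 0.85 on the higher side and -1.55 on the lower side. The difference of both contrasts was called for 3 probe sets (0.0623%). Drug and run session cannot be told apart in the treated values.

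**Figure D5:**
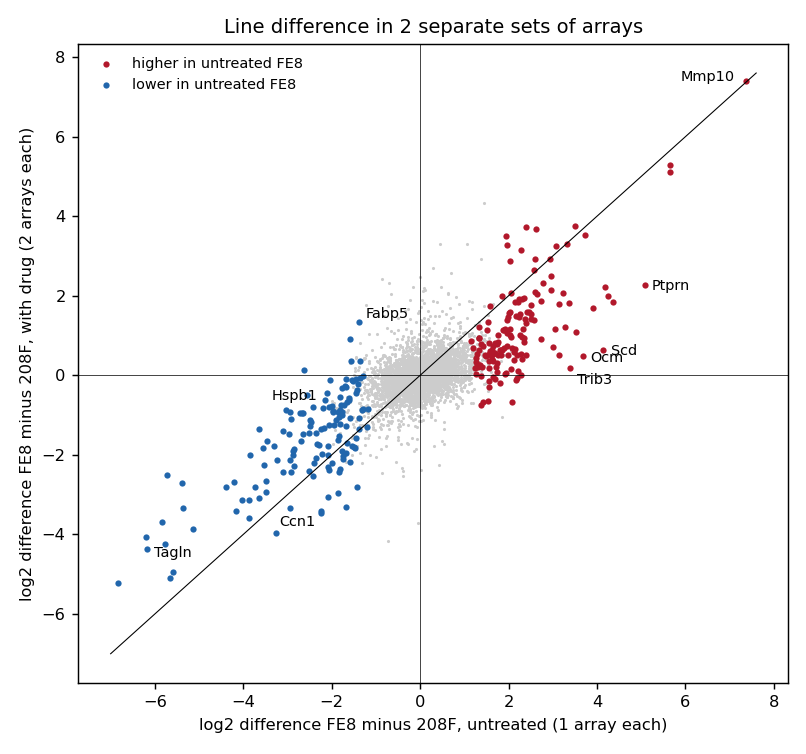
Log2 difference of FE8 against 208F for each probe set in the untreated arrays (horizontal, 1 array per line) and in the treated arrays (vertical, 2 arrays per line), with untreated calls in colour. Of 149 calls on the higher side, 69 were also called higher in treated arrays, and of 136 on the lower side, 92 were also called lower.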

How the data were processed

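RNA of 6 rat fibroblast samples was measured on the Affymetrix RG_U34A array. The authors deposited a linear intensity for every probe set, rounded to whole numbers. MAS5 is the tool in the submitters' processing notes, and its version and settings are not given in the sources used here. Chip lot and scan day came from run records deposited per array. The table held 4847 probe sets, fewer than the array carries, by a selection that is not given in the sources used here, and 29 control probe sets were left out of the tests.

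Log2(signal + 64) was fitted in limma 3.58.1 (R 4.3.3) with 4 group means and an intensity trend (2 residual and 9.02 prior degrees of freedom). P-values were 2-sided and adjusted by Benjamini-Hochberg over 4818 probe sets, with a threshold of 0.05, and the median standard error was 0.42. The number of arrays limits the precision. The fit was tested on simulated data. A table of rat genes (GRCr8) named 1 gene for 3956 probe sets (2890 genes), several for 207 and none for 655. Probe sets that share transcripts or paralogs can mix signals.

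Named were, among genes past the threshold, the 20 most raised and the 20 most lowered in FE8 (1 probe set each, smallest p), up to 8 members per list in order of size with called ones first, and clusterin. Members in lists were taken by the brightest probe set, and a list needed 3 measured genes. The 35 lists held 1123 genes, 582 measured. Members and lists were chosen with earlier results of these data known, so lists got no test. Values named outside this rule were chosen after they were seen. Promoters were the 250 bases before each RefSeq start. Treated replicate numbers were not shown to mark pairs. Alternatives changed the pseudocount, normalization, filters, variance prior and arrays in the fit.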

Additional observations from a re-analysis of the deposited data

Results flagged for a closer look

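The line difference without drug was set against that under drug by the difference of both contrasts in limma. It passed for 3 probe sets of 4818 (0.0623%). Ptprn had a difference of 2.80 (adjusted p = 0.0377): untreated 208F was at 35 and treated 208F at 527 and 595, with FE8 at 3277 untreated and 3016 and 2888 treated. Ocm had 3.19 (adjusted p = 0.0377), with 208F at 74 untreated and 3518 and 2490 treated. Plin2, a lipid droplet protein chosen after its values were seen, had -2.69 (adjusted p = 0.0377), with signals of 96 in 208F and 38 in FE8 untreated, 1568 and 1551 in treated 208F and 6483 and 6738 in treated FE8. Its other probe set differed by -0.07 untreated.

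For 3 named genes called in the untreated comparison, the treated arrays of the lines lay in the opposite order to the untreated ones without overlap, and the test of the difference did not pass. These were the syndecan Sdc1 (difference -1.71, adjusted p = 0.144), the isoprenoid enzyme Idi1 (2.11, adjusted p = 0.089) and Fabp5 (-2.74, adjusted p = 0.0506). Fabp5 lay at 125 and 8 untreated, at 928 and 1142 in treated 208F and at 2493 and 2977 in treated FE8. Drug and run session cannot be told apart in any of these values.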

How the results depend on the processing

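The untreated count of 285 calls lay between 214 and 292 under 2 other pseudocounts, 3 normalizations, a signal filter and no intensity trend, and was 180 without probe sets of shared suffix, where 3228 were tested. Without 1 treated array it ranged from 109 to 541. The lone array left in an arm is then assumed to vary like the other groups. With a replicate block it was again 285, 262 of them shared with the fit without it. The deviations of treated replicates correlated between lines with r = 0.319 for this single pairing. The treated count of 341 was 226 without shared suffixes, ranged from 96 to 530 without 1 treated array and was 325 with the block. The count of 3 for the difference of both contrasts was 10 with a pseudocount of 16, 6 with the larger one, 9 with median centring and 13 without shared suffixes. It was 0 with quantile normalization (316 at an unadjusted p under 0.05 in limma), cyclic loess (371), a mean signal of 200 or more (312), no intensity trend (332) and a replicate block (499), and it ranged from 0 to 206 without 1 treated array.

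Only the normalizations could change the sign of an untreated difference, since the other alternatives leave the order of the untreated signals as it was. No called difference among the 271 named probe sets, which include list members that were not called, changed sign under any alternative. Without FE8 treated replicate 1 or 2, 46 and 45 of them lost the call. All 40 largest differences kept theirs in each alternative that tested them, except Klf4 and Hspb1 without either treated FE8 array. Calls near the threshold were lost more widely. Mapk6 lost its call under 9 alternatives, Idi1 and clusterin under 8, and Alcam, Sdc4, Fdps and Fabp5 under 7. Of 277 list medians recomputed, 264 moved by less than 0.30, and 13 moved by more. Limits include the single untreated array per line and signals at or below 64, held by 13.6% and 13.8% of probe sets in 208F and FE8.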

Other observations

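Of 202 called genes, 101 stood in no list, 55 higher and 46 lower in FE8. The genes below were chosen from them after their values were seen. Enzymes better known from liver and gut were among the higher ones. The sulfotransferase Sult1b1 went from 41 to 2098 and the cytochrome Cyp3a9 from 75 to 2461. Hsd11b1, which regenerates active glucocorticoid, went from 82 to 716. Outside that group, the glucuronosyltransferase Ugt2a1 went from 65 to 795. The amino acid enzymes Cth, which makes cysteine, and Got1, a transaminase, went from 169 to 1006 and from 547 to 2213. Errfi1, a feedback inhibitor of the EGF receptor, went from 165 to 1307, and the RAS relative Rala from 629 to 1989. The called probe set of Errfi1 lay at 2.58, while its other lay at 0.49 and was not called.

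On the lower side several regulators of actin stood outside the lists. The small GTPase Rhob went from 1666 to 165, the kinase Pak1 from 950 to 113, the CDC42 effector Cdc42ep3 from 732 to 40 and the actin-associated Pdlim4 from 633 to 6. The Wnt receptor Fzd2 went from 1558 to 82, the homeobox gene Meox2 from 2201 to 201 and the Notch target Hes1 from 406 to 12. Txnip, an inhibitor of thioredoxin, went from 876 to 85. For Hes1 the treated arrays lay close together, at 460 and 557 in 208F and at 594 and 536 in FE8, while for Meox2 they lay apart, at 543 and 424 against 48 and 27.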
